A study of Rattus norvegicus with 9 samples.

Results

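The comparison described here sets the brain cortex of rats exposed to a simulated 3 km against that of rats at sea level. Its 6 arrays are the 3 that the labels assign to 3 km and the 3 that they assign to sea level, out of 9 in the series. The other 3 hold cortex from 7 km and share the estimate of the spread. The labels call the altitude groups hypoxic and the sea level group normoxic. They name no strain, age, drug or genetic change, and the length of the stay is not given in the sources used here. Each array is a 1-colour Illumina bead array for rat that carries biotin-labelled cRNA made from total RNA. No label says that replicates are separate animals, so p-values measure the spread between these samples, which may be technical. A probe was tested when its detection p-value was below 0.05 on at least 3 of the 9 arrays, which held for 6656 of 22523 probes. Of these, 4867 carry a gene symbol.

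Sea level replicate 3 stood apart. Its signals had Spearman correlations of 0.642 to 0.660 with the other arrays, against 0.969 to 0.978 among those 8, and it had 8170 detected probes against 5881 to 6621. Of the tested probes, 986 were detected on all 8 other arrays and not on it. The comparison was therefore made with all 9 arrays and with the 8 that leave it out, on which sea level is represented by 2 arrays. Levels are normalized log2 signals, which are not compared between genes. They start at about 7.41 on the 8 arrays, so that differences of dim probes are compressed. The median of all tested probes differed by -0.00082 with 9 arrays and by 0.00082 with 8.

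Mammalian cells answer low oxygen through hypoxia-inducible factors, whose alpha subunits are hydroxylated by prolyl hydroxylases and removed through the VHL protein when oxygen is plentiful. When they accumulate, they bind a short DNA core, the hypoxia response element, and raise genes for glycolysis, glucose uptake and vessel growth. In brain, several oxygen-dependent steps of sterol synthesis, the making of myelin and the supply of ATP by mitochondria also draw on oxygen.

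With 9 arrays, limma passed 0 of 6656 probes at an adjusted p below 0.05 (0%), and the smallest adjusted p was 0.0782, shared by 13 probes. At an unadjusted p below 0.05 there were 537 probes (8.07%), of which 217 were higher (3.26%) and 320 lower (4.81%) at 3 km. With 8 arrays, 5 probes passed (0.0751%), 4 of them lower and 1 higher at 3 km. The 4 that fell were Acat2, Omg, Enoph1 and Abcg2, and the probe that rose has no gene symbol in the platform annotation. Abcg2 was tested only through its detection at sea level, as described below. With 8 arrays 648 probes had an unadjusted p below 0.05 (9.74%). The calls did not withstand a change of arrays: leaving out any single one of the 8 arrays left 0 calls. No background correction gave 37 calls (16 higher, 21 lower), 17 came from the authors' value table (12 higher, 5 lower) and 48 from array weights (14 higher, 34 lower). On 9 arrays array weights gave 120 calls (50 higher, 70 lower), and the authors' table and an intensity trend gave 3 each.

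**Figure D1:**
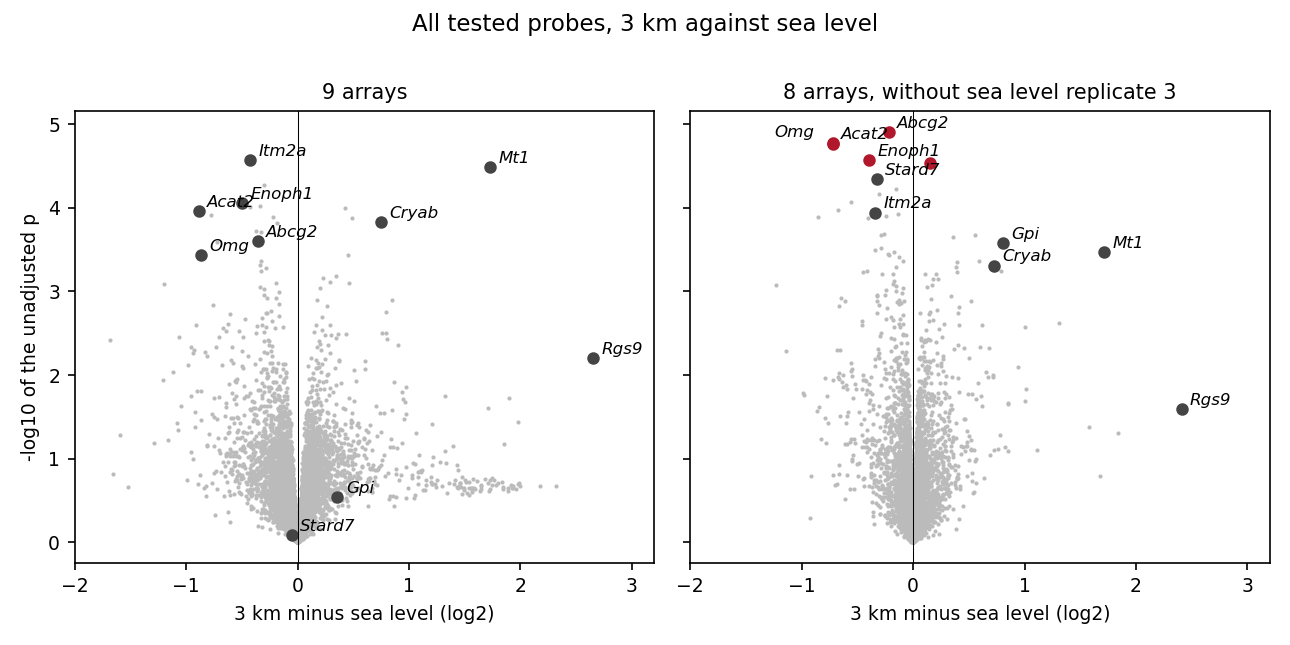
Difference between 3 km and sea level (log2, horizontal) against -log10 of limma's unadjusted p (vertical) for the 6656 tested probes, with 9 arrays on the left and 8 on the right; red points passed and dark points did not. With 8 arrays the 5 red points are Acat2 and Omg, both at -0.72, Enoph1 at -0.40, Abcg2 at -0.22 and the unnamed probe at 0.15. With 9 arrays no point is red, and Stard7 moves from -0.33 with 8 arrays to -0.05 with 9.

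The promoter windows of the 4 genes that fell are shown first, because the hypoxia response element core is the sequence through which the oxygen-sensing factors bind. The windows are those of RefSeq on the rat assembly GRCr8 and run 5′ to 3′ from 250 bases before to 50 bases after the gene's start. Capitals mark the core, ACGTG or GCGTG on either strand, where CACGT and CACGC are the same letters read from the other strand.
Acat2 (chr1:50100590-50100889, plus strand): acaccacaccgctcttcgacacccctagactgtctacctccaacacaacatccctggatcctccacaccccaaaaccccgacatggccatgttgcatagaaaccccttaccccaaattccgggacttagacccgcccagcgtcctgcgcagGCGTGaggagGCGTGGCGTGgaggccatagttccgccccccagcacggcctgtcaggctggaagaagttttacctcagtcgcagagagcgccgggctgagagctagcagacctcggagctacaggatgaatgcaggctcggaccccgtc
Enoph1 (chr14:9861410-9861709, minus strand): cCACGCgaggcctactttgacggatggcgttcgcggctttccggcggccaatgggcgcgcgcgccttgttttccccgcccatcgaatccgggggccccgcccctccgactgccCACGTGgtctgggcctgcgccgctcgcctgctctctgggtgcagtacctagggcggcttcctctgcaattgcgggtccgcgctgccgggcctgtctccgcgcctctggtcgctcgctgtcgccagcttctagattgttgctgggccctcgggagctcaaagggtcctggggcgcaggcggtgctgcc
Abcg2 (chr4:89075224-89075523, plus strand): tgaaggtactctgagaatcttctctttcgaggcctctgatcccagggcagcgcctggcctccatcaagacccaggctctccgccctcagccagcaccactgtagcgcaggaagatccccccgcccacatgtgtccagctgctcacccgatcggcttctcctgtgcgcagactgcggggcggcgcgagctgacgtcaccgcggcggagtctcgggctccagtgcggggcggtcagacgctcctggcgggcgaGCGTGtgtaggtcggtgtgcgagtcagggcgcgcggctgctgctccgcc
Omg (chr10:64962001-64962300, minus strand): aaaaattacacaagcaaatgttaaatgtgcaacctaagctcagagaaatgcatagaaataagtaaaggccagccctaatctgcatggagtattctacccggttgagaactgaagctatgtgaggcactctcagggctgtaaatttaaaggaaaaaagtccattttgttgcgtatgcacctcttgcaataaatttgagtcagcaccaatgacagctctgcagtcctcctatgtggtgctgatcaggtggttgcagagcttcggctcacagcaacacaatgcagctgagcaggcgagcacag
The Acat2 window holds 3 cores, all GCGTG, which begin 99, 89 and 84 bases before the start. The Enoph1 window holds 3 matches, and 2 of these overlap in the palindrome read as CACGT and ACGTG. The Abcg2 window holds 1 core just after the start and the Omg window holds 0. Of 33469 promoter windows of this length in the table, 41.6% hold at least 1 core. A match describes letters in a window and not a bound site.

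Acat2 encodes the cytosolic acetyl-CoA acetyltransferase that makes acetoacetyl-CoA, the first step of the route to cholesterol. Its level was 8.07, 8.10 and 8.12 on the 3 km arrays and 8.72 and 8.90 on sea level replicates 1 and 2. All 3 km arrays lay below both sea level arrays. Acat2 fell by 0.72 ± 0.060 (SE, adjusted p = 0.0378 with 8 arrays). With 9 arrays, where sea level replicate 3 was at 9.30, the difference was -0.89 ± 0.12 (adjusted p = 0.0782). The deposited signals, before any normalization, were 889, 1005 and 792 at 3 km and 1237, 1142 and 937 at sea level, so 1 array of each group overlapped before normalization.

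Omg encodes oligodendrocyte-myelin glycoprotein, a surface protein of myelin and neurons that binds the Nogo receptor and restrains axon growth. It was at 10.003, 10.03 and 10.07 at 3 km and at 10.67 and 10.85 at sea level. The groups were apart on the normalized scale, and Omg fell by 0.72 ± 0.060 (adjusted p = 0.0378 with 8 arrays). With 9 arrays the difference was -0.87 ± 0.14 (adjusted p = 0.122). Its deposited signals overlapped: they were 2617, 2856 and 2187 at 3 km and 2682, 2413 and 2073 at sea level. The separation of Omg thus appears only after arrays are put on a common scale, and without background correction its 8-array difference was -0.40 (adjusted p = 0.0611).

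Enoph1 encodes the enolase-phosphatase of the methionine salvage pathway. It was at 8.08, 8.13 and 8.05 at 3 km and at 8.46 and 8.52 at sea level. Every 3 km array was below both sea level arrays, and Enoph1 fell by 0.40 ± 0.036 (adjusted p = 0.0388 with 8 arrays). With 9 arrays the difference was -0.50 ± 0.064 (adjusted p = 0.0782). The deposited signals of Enoph1 were 908, 1053 and 740 at 3 km and 1028, 899 and 745 at sea level, and they overlapped.

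Abcg2 encodes the breast cancer resistance protein, a pump of brain capillary endothelium that returns drugs and toxins to the blood. Its probe was detected on all 3 sea level arrays, on 0 of 3 at 3 km and on 0 of 3 at 7 km, so at 3 km it has only an upper bound. Abcg2 thus met the detection filter only through the group where it was higher, and only with sea level replicate 3 counted. A filter on the 8 arrays alone leaves it out, so its adjusted p is no independent support for a fall. It was at 7.54, 7.51 and 7.52 at 3 km and at 7.73 and 7.74 at sea level, close to the bottom of the scale, and Abcg2 fell by 0.22 ± 0.017 (adjusted p = 0.0378 with 8 arrays). With 9 arrays the difference was -0.36 ± 0.054 (adjusted p = 0.0949). Read as a bound, the level at sea level was at least 1.14-fold higher than at 3 km with 8 arrays and at least 1.25-fold higher with 9. The bound sets the sea level mean, on each 3 km array, against the lowest detected signal or the probe's own where that is higher. It takes no account of the spread between arrays. The deposited signals of Abcg2 did not overlap, at 258, 219 and 194 at 3 km and 420, 364 and 402 at sea level. Without background correction the 8-array difference of Abcg2 was -1.14 (adjusted p = 0.0114), and in the authors' value table it was -2.65 (adjusted p = 0.123), so its size depends on how the background is handled.

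The probe without a gene symbol, ILMN_1349474, was at 8.03, 8.05 and 8.02 at 3 km and at 7.87 and 7.89 at sea level. It rose by 0.15 ± 0.014 (adjusted p = 0.0388 with 8 arrays), and the difference was 0.23 ± 0.041 with 9 arrays (adjusted p = 0.178). On the authors' table its 8-array difference was 0.45 (adjusted p = 0.181).

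**Figure D2:**
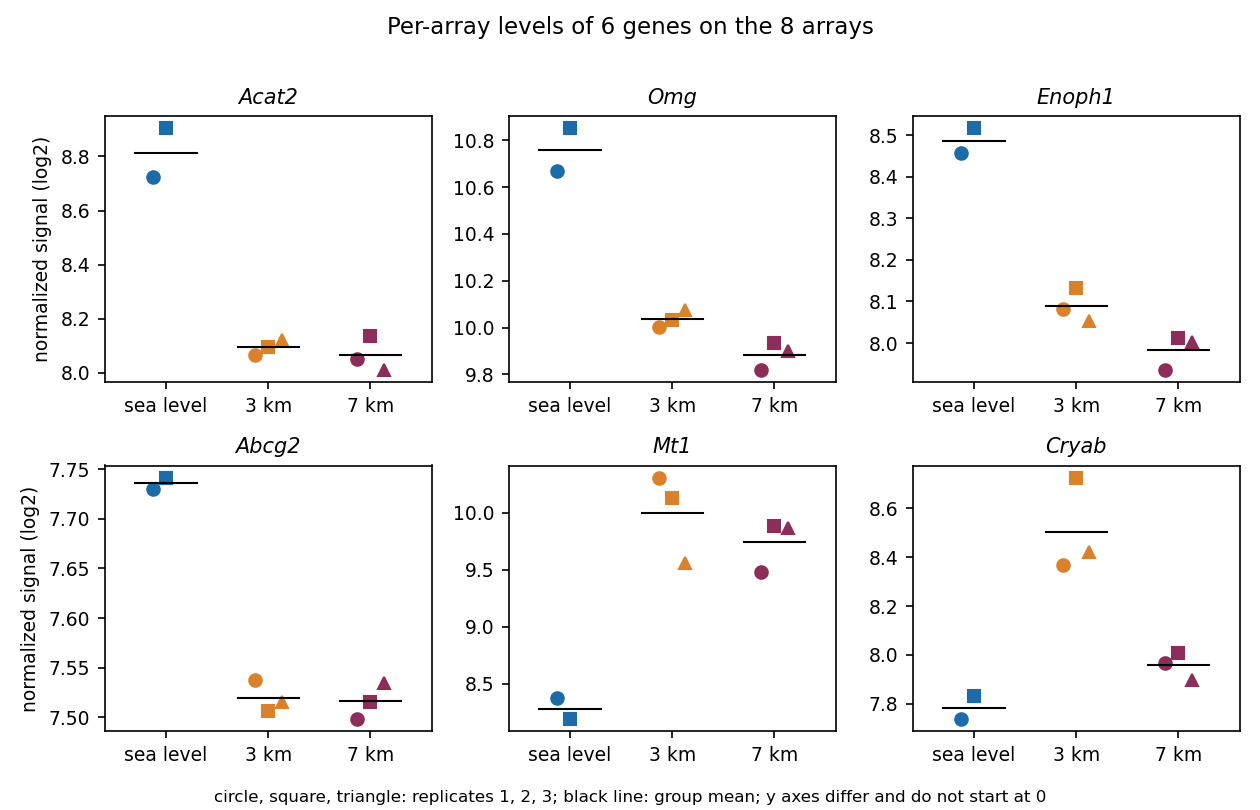
Normalized log2 signal (vertical, with a separate scale for each gene) of Acat2, Omg, Enoph1, Abcg2, Mt1 and Cryab on the 8 arrays by group; each symbol is 1 array and the black line is the group mean. The 3 km arrays of Acat2 lie between 8.07 and 8.12, below both sea level arrays at 8.72 and 8.90, and those of Mt1 lie between 9.56 and 10.31, above both sea level arrays at 8.37 and 8.19.

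The largest difference among the genes with the smallest p belonged to Mt1, which encodes metallothionein 1, a cysteine-rich protein that binds zinc and copper. Its deposited signals were 2888, 2950 and 1784 at 3 km and 967, 700.3 and 528 at sea level, so the groups were apart before normalization. The difference was 1.72 ± 0.19 with 9 arrays (adjusted p = 0.0782) and 1.72 ± 0.24 with 8 (adjusted p = 0.0945), and neither passed. With 8 arrays Mt1 passed without background correction (1.22, adjusted p = 0.0114), in the authors' value table (1.39, adjusted p = 0.0358), with array weights and with an intensity trend. Over all alternatives on 8 arrays its adjusted p ranged from 0.0114 to 0.382. Metallothionein genes are switched on by zinc through metal response elements, and the Mt1 window is printed for that reason, although it was chosen after its values were seen. Capitals mark the core, TGCACNC or TGCGCNC on either strand.
Mt1 (chr19:10832926-10833225, minus strand): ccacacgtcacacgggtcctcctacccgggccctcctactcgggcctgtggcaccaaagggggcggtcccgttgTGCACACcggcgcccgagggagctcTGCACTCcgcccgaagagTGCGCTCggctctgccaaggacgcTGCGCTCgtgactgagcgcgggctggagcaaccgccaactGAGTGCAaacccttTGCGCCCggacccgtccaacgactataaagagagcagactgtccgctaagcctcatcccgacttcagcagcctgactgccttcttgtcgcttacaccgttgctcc
The window holds 6 such cores, from 176 to 55 bases before the start, and 24.2% of the 33469 windows hold at least 1. It also holds 1 match of the hypoxia response element core, 247 bases before the start, which is not in capitals.

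Other genes filled the named set by the smallest p and did not pass with 9 or with 8 arrays. Among those lower at 3 km, Itm2a, a membrane protein found in brain endothelium, differed by -0.43 ± 0.047 with 9 arrays and by -0.34 ± 0.039 with 8 (adjusted p = 0.0782 and 0.0595). Plekhg5 differed by -0.30 ± 0.037 with 9 arrays, Scg3, a granin of dense-core vesicles, by -0.34 ± 0.045, and Fez1, an adaptor of axonal transport, by -0.42 ± 0.056. On each of these 4 genes every 3 km array was below every sea level array with 9 arrays, as on 10.7% of all tested probes. The genes were picked for a small p, so this adds no support. Stard7, which carries phosphatidylcholine to mitochondria, differed by -0.33 ± 0.032 with 8 arrays (adjusted p = 0.0508). With 9 arrays Stard7 was at 11.55, 11.61 and 10.77 on sea level replicates 1 to 3, and its difference was -0.05 ± 0.20.

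Among those higher at 3 km, Cryab encodes alpha B-crystallin, a small heat shock protein that oligodendrocytes hold in quantity. It was at 8.37, 8.73 and 8.42 at 3 km and at 7.74 and 7.83 at sea level. Its difference was 0.72 ± 0.11 with 8 arrays and 0.75 ± 0.11 with 9 (adjusted p = 0.100 and 0.0782). Wdr45, a scaffold of early autophagosomes, differed by 0.36 ± 0.046 with 8 arrays, Crip2, a LIM domain protein, by 0.59 ± 0.086, and Gpi, the glycolytic phosphoglucose isomerase, by 0.80 ± 0.11. Ccar2, an inhibitor of the deacetylase SIRT1, and Zfp593, a factor of ribosome assembly, differed by 0.49 ± 0.067 and 0.45 ± 0.073 with 9 arrays. The smallest of the adjusted p-values of these 5 genes was 0.0782, for Wdr45 and Ccar2 with 9 arrays.

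Gene lists were read by counts, beside the share of all tested probes: 49.7% of probes had a difference above 0 with 9 arrays and 51% with 8. With 9 arrays 8.8% of all tested probes were higher on every 3 km array than on every sea level array and 10.7% were lower, and with 8 arrays these shares were 14.8% and 16%. With 9 arrays no member of any list passed. With 8 arrays 2 members passed, Acat2 of cholesterol synthesis and Omg of the oligodendrocyte markers.

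Sterol synthesis builds cholesterol from acetyl-CoA in a series of steps, several of which use molecular oxygen. Of 24 listed genes, 12 were tested, and 11 of these had lower levels at 3 km with 8 arrays and 10 with 9. The median difference was -0.12 with 8 arrays and -0.14 with 9. With 8 arrays 10 of the 12 were lower on every 3 km array than on both sea level arrays, and 8 had an unadjusted p below 0.05. With 9 arrays 6 of the 12 were lower on every 3 km array than on every sea level array, and 6 had an unadjusted p below 0.05. Sqle, squalene epoxidase and the first oxygen-using step, was at 7.64, 7.64 and 7.65 at 3 km and at 7.77 and 7.81 at sea level. Its difference was -0.15 ± 0.016 with 8 arrays (adjusted p = 0.0570) and -0.22 ± 0.030 with 9 (adjusted p = 0.0782). Fdft1, squalene synthase, differed by -0.15 ± 0.027 with 8 arrays (adjusted p = 0.137). Averaged over the 12 genes, the deviation from the mean of the 8 arrays, with all 9 normalized together, was -0.04 to -0.03 on the 3 km arrays and 0.15 on sea level replicates 1 and 2. Sea level replicate 3 was at 0.04 on the same measure, between them. By summed normalized signal it was at 3073, below the 3261 to 3404 of the 3 km arrays, while sea level replicates 1 and 2 were at 4086 and 3916, so the place of replicate 3 depends on the measure.

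Glycolysis turns glucose into pyruvate and lactate without oxygen. Of 15 tested genes of 21, 14 had higher levels at 3 km with 8 arrays and 13 with 9, and the median differences were 0.18 and 0.28. Pfkp and Pfkl are forms of phosphofructokinase, the pathway's main control point. Pfkp differed by 0.40 ± 0.059 with 8 arrays (adjusted p = 0.0997) and Pfkl by 0.18 ± 0.028 (adjusted p = 0.111). With 9 arrays the difference of Pfkl was 0.29 ± 0.052 (adjusted p = 0.181). Gpi was at 10.65, 10.75 and 10.97 at 3 km and at 10.03 and 9.94 at sea level with 8 arrays. With 9 arrays sea level replicate 3 was at 11.23, above every 3 km array, and the difference of Gpi was 0.36 ± 0.32 (adjusted p = 0.557). The list's unadjusted p was below 0.05 for 6 genes with 8 arrays, all of them higher at 3 km.

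The enzymes that take pyruvate into the mitochondrion and burn it had lower levels at 3 km in 14 of 15 tested genes with 9 arrays and in 11 with 8. The median differences were -0.12 and -0.04. Pdhx, which anchors a subunit in the pyruvate dehydrogenase complex, was at 8.41, 8.38 and 8.42 at 3 km and at 8.68 and 8.74 at sea level with 8 arrays. The difference of Pdhx was -0.31 ± 0.033 (adjusted p = 0.0576). With 9 arrays, where sea level replicate 3 was at 9.50, it was -0.56 ± 0.18 (adjusted p = 0.533). Pdhb, another subunit of the complex, differed by -0.40 ± 0.13 with 8 arrays (adjusted p = 0.404). Ogdh, of the alpha-ketoglutarate dehydrogenase complex, differed by -0.17 ± 0.052 with 8 arrays. Of 46 tested genes of oxidative phosphorylation, 36 had lower levels at 3 km with 9 arrays and 24 with 8, where the median was -0.01. Ribosomal protein genes differed between the fits: 18 of 36 were higher at 3 km with 9 arrays and 34 of 36 with 8.

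**Figure D3:**
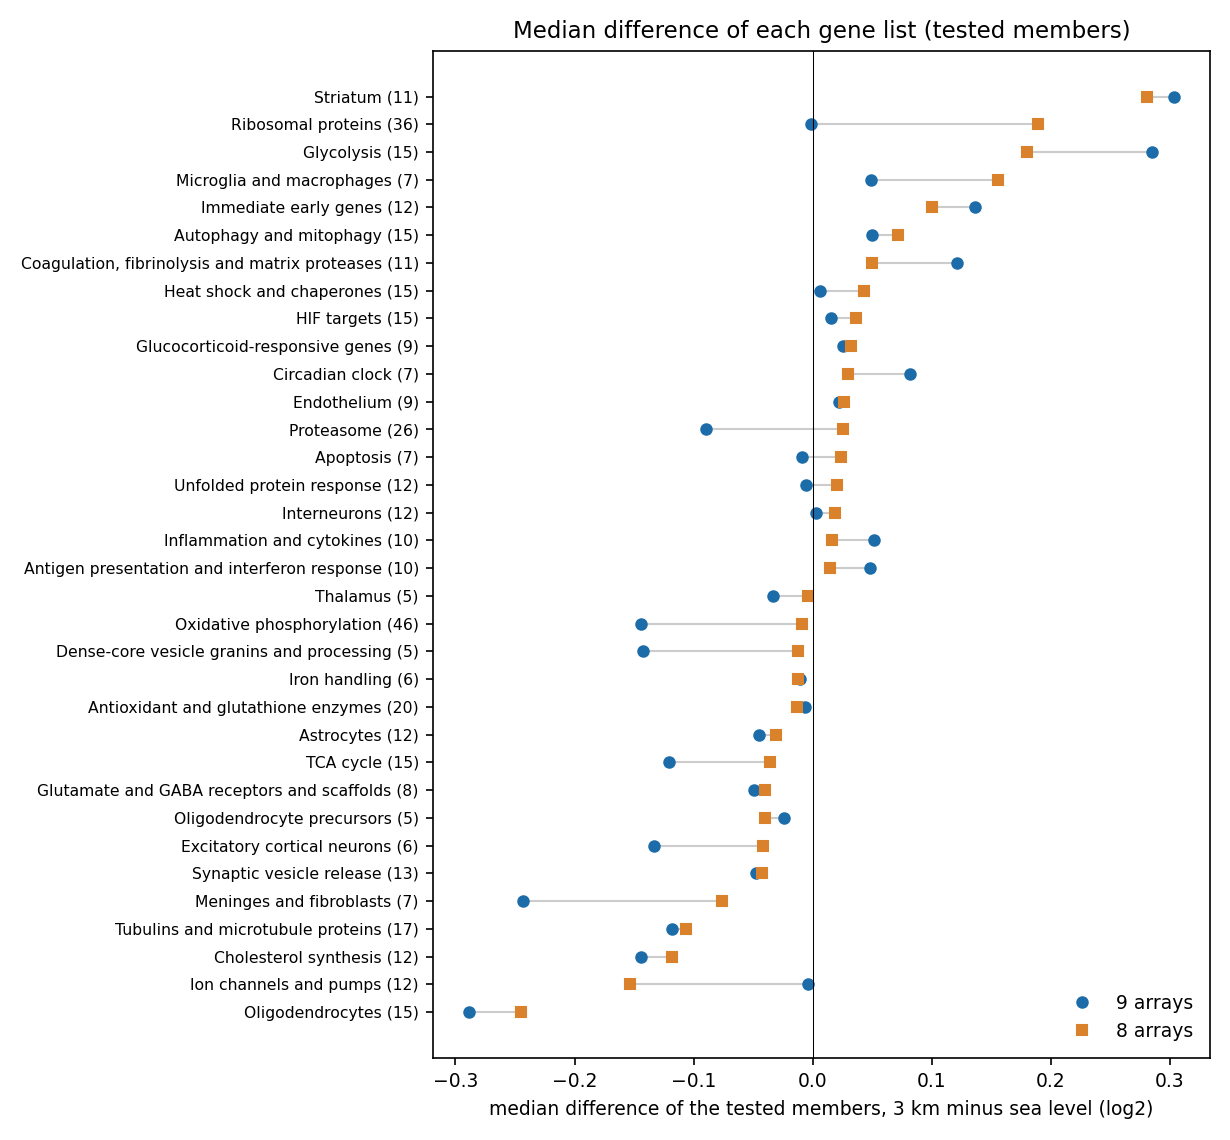
Median log2 difference between 3 km and sea level (horizontal) of the tested members of each list with at least 5 of them, with their number in brackets; circles are 9 arrays and squares are 8. Striatal markers (0.30 and 0.28) lie at the top and oligodendrocyte markers (-0.29 and -0.24) at the bottom in both, glycolysis lies at 0.28 and 0.18, and ribosomal proteins move from -0.0017 with 9 arrays to 0.19 with 8.

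None of the oxygen-sensing genes or their listed targets passed. Hif1a encodes the HIF-1 subunit that oxygen controls. It was above background on 8 of 9 arrays and differed by -0.07 ± 0.037 with 9 arrays (adjusted p = 0.533) and -0.04 ± 0.025 with 8. Vegfa, which drives vessel growth, had the same number of detections and differed by -0.01 ± 0.034 and 0.02 ± 0.018. Both genes were close to the bottom of the scale, 7.26 with 9 arrays, where differences are compressed. There Vegfa was at 7.45, 7.43 and 7.47 at 3 km. Its deposited signals, before normalization, were 293, 288 and 267 at 3 km and 211, 208 and 258 at sea level. Under the alternatives its difference was 0.0026 to 0.36 with 8 arrays and -0.38 to 0.19 with 9. Those of Hif1a overlapped, at 282, 337 and 298 against 303, 257 and 286 in deposited signal. Sea level replicate 3 was the only array to detect Epas1, the HIF-2 alpha gene, or Hmox1, which encodes a heme-degrading enzyme, and neither was tested. Slc2a1, the glucose transporter of the blood-brain barrier, and Tfpi2, a protease inhibitor named in the series title, were detected on 0 of 9 arrays, so no fold can be given. Of 37 listed HIF targets 15 were tested, and 12 had higher levels at 3 km with 8 arrays against 8 with 9. The median differences were 0.04 and 0.02. Stc1, a secreted glycoprotein hormone, differed by 0.26 ± 0.054 with 9 arrays and 0.18 ± 0.044 with 8 (adjusted p = 0.234 and 0.286). Ndrg1 differed by -0.21 ± 0.080 with 8 arrays. Cited2, a transcriptional brake on HIF, was detected on all 3 arrays at 3 km and at sea level on replicate 3 alone. Read as a bound that ignores the spread, its level at 3 km was at least 1.03-fold higher with 8 arrays (adjusted p of the difference = 0.490). With 9, where the groups overlapped, the difference was 0.02 ± 0.056.

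Markers of regions and cell types differed between arrays and are given as measured, and their part in the results above was not tested. In a piece of bulk tissue, fewer cells of a type and less RNA per cell cannot be told apart. Markers of the striatum, which lies under the cortex, were higher at 3 km in 11 of 11 tested genes in both fits, with medians of 0.30 with 9 arrays and 0.28 with 8. Rgs9, a brake on dopamine receptor signalling in striatal neurons, was at 10.92, 10.89 and 11.23 at 3 km with 9 arrays and at 7.97, 9.35 and 7.77 at sea level. The 7 km arrays held Rgs9 at 8.01, 8.11 and 10.49, so 1 array of that group was near the 3 km level. The difference at 3 km was 2.65 ± 0.70 (adjusted p = 0.393), and Rgs9 did not pass. Adora2a, an adenosine receptor of the indirect pathway, differed by 1.90 ± 0.63 with 9 arrays (adjusted p = 0.533). Gng7, a G protein subunit of striatal neurons, differed by 0.97 ± 0.36. The summed normalized signal of the 11 markers was 11306 to 16932 on the 3 km arrays and 2733 to 7972 on the sea level arrays.

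Cortical excitatory neuron markers were tested for 6 of 16 genes. Slc17a7, the vesicular glutamate transporter of cortex, was detected on every array and differed by -0.16 ± 0.074 with 9 arrays. Of the 6, 5 were lower at 3 km with 9 arrays and 4 with 8, at medians of -0.13 and -0.04. Neurod6, a transcription factor of cortical projection neurons, was detected on 3 of 3 sea level arrays, on 0 of 3 at 3 km and on 1 of 3 at 7 km. It thus met the detection filter only through sea level, the group where it was higher, so its values are no independent support for a fall. Read as a bound that ignores the spread, its level at sea level was at least 1.06-fold higher than at 3 km with 9 arrays (adjusted p of the difference = 0.406). Fezf2, which specifies deep-layer output neurons, was detected on all 9 arrays and differed by -0.13 ± 0.069 with 9 arrays and by -0.06 ± 0.046 with 8 (adjusted p = 0.533 and 0.742).

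Oligodendrocyte markers were lower at 3 km in 10 of 15 tested genes with 9 arrays and in 11 with 8, at medians of -0.29 and -0.24. Members ran in both directions. Omg passed with 8 arrays, as above, and Ppp1r14a, which regulates myosin phosphatase, was at 8.41, 8.47 and 8.33 at 3 km and 8.84 and 8.86 at sea level (-0.45 ± 0.069, adjusted p = 0.100 with 8 arrays). With 9 arrays the groups overlapped for Ppp1r14a, and its difference was -0.29 ± 0.13 (adjusted p = 0.533). Cryab went the other way. The summed signal of the 15 markers was 10042 to 13116 at 3 km, 13303 to 17089 at sea level and 6144 to 8995 at 7 km with 9 arrays. By this measure the 3 km and sea level ranges did not overlap. By mean deviation from the mean of the 8 arrays they did, at 0.003 to 0.28 at 3 km and 0.25 to 0.38 at sea level with 9 arrays. The separation thus depends on the measure. Acat2 and Abcg2 are not in this list, and the share of oligodendrocytes in their signal was not tested.

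Markers of the meninges and of fibroblasts were lower at 3 km in 6 of 7 tested genes with 8 arrays and in 5 with 9, at medians of -0.08 and -0.24. Their summed signal with 8 arrays was 1518 to 1628 at 3 km and 1975 to 2047 at sea level, and the groups did not overlap. With 9 arrays it was 1462 to 1586 at 3 km and 1955, 2023 and 5181 on sea level replicates 1 to 3. The 7 km arrays held it at 1484 to 2713. Of the 12 tested astrocyte markers, 8 were lower at 3 km with 8 arrays and 7 with 9, at medians of -0.03 and -0.04. Their summed signal overlapped, at 28203 to 31679 at 3 km and 29611 to 33541 at sea level with 9 arrays. No marker in either list passed.

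**Figure D4:**
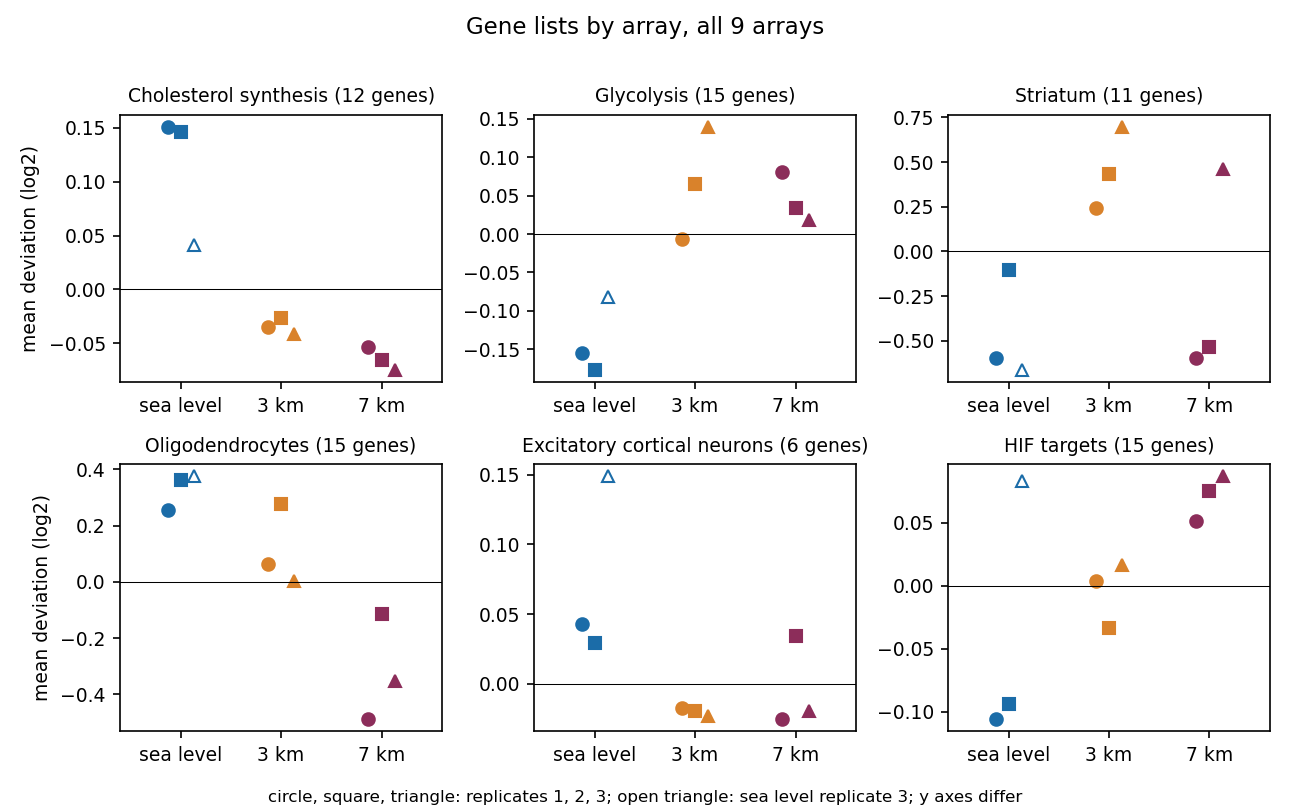
Mean deviation of a list's tested genes from their mean over the 8 arrays (log2, vertical, with a separate scale for each list) on each of the 9 arrays; each symbol is 1 array, and the open triangle is sea level replicate 3. The 3 km arrays of the striatal list lie at 0.24, 0.43 and 0.70, above every sea level array (-0.60, -0.11 and -0.66), and 1 of the 7 km arrays lies at 0.46.

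Microglial markers were higher at 3 km in 6 of 7 tested genes with 8 arrays and in 5 with 9. C1qb and C1qc, subunits of the complement component that tags synapses and debris, differed by 0.40 ± 0.092 and 0.16 ± 0.035 with 8 arrays (adjusted p = 0.253 and 0.233). Trem2, a lipid receptor of microglia, differed by 0.25 ± 0.064. Endothelial markers were divided, with 5 of 9 tested genes higher at 3 km with 8 arrays and 6 with 9, at medians of 0.03 and 0.02. The summed signal of the 9 markers was 3963 to 5718 at 3 km and 3260 to 3556 at sea level with 9 arrays. Their mean deviations overlapped, at -0.16 to 0.12 and -0.22 to -0.07. Of the 3 with the smallest p, Itm2a, given above, and Emcn, a sialomucin of capillaries (-0.11 ± 0.037 with 8 arrays), were lower at 3 km. Podxl, another sialomucin (0.25 ± 0.063), was higher. Among genes of coagulation and matrix proteases, 8 of 11 were higher at 3 km in both fits. Tfpi, the inhibitor of tissue factor, was at 7.72, 7.82 and 7.77 at 3 km and at 7.56 and 7.57 at sea level, a difference of 0.21 ± 0.032 with 8 arrays (adjusted p = 0.100). Serpine2, an inhibitor of thrombin and urokinase, differed by 0.33 ± 0.11. Anxa2, a surface cofactor of plasmin formation, was detected on all 3 arrays at 3 km and at sea level on replicate 3 alone. Read as a bound that ignores the spread, its level at 3 km was at least 1.07-fold higher with 8 arrays (adjusted p of the difference = 0.287). None of the genes in this paragraph passed in the 2 main fits. Under the 18 alternatives with 8 arrays Tfpi passed in 4, and in 2 with 9 arrays. Over all 18 with 8 arrays limma's adjusted p for Tfpi ran from 1.8e-05 to 0.464 and its difference from 0.18 to 4.36. Both thus depend strongly on the processing. The deposited signals of Tfpi were 496, 674 and 472 at 3 km and 240, 219 and 304 at sea level. Anxa2 passed in 2 with 8 arrays, Itm2a in 3 with 8 and 2 with 9, and C1qc in 1 with each. C1qb, Podxl and Trem2 passed in 1 with 9 arrays, and Emcn and Serpine2 in 0 of both.

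Immediate early genes, which neurons switch on within minutes of activity, were higher at 3 km in 9 of 12 tested genes with 9 arrays and in 10 with 8, at medians of 0.14 and 0.10. Junb differed by 0.59 ± 0.17, Arc, a capsid-like regulator of glutamate receptors, by 0.85 ± 0.28 and Egr2 by 0.82 ± 0.38 with 8 arrays. Their adjusted p-values were 0.345, 0.409 and 0.569. With 9 arrays, where sea level replicate 3 was the lowest array for Junb and Arc at 7.86 and 8.39, these 2 differences were 0.93 ± 0.30 and 1.33 ± 0.44 (adjusted p = 0.513 and 0.533). Among genes that respond to glucocorticoids, Fkbp5, a co-chaperone of the glucocorticoid receptor, was at 8.54, 8.46 and 8.65 at 3 km and 8.11 and 7.95 at sea level (0.52 ± 0.094, adjusted p = 0.135 with 8 arrays). With 9 arrays sea level replicate 3 was at 8.59, the groups overlapped, and the difference of Fkbp5 was 0.38 ± 0.16 (adjusted p = 0.533). Mt1, given above, is also in this list. Klf9, a transcription factor of the same response, differed by -0.64 ± 0.18 with 8 arrays, so members of the list ran in both directions, and its median was 0.03. Of the tubulins and microtubule proteins, 15 of 17 were lower at 3 km with 8 arrays and 14 with 9. Tubb3, the neuronal beta tubulin, differed by -0.29 ± 0.037 with 8 arrays (adjusted p = 0.0787). With 9 arrays sea level replicate 3 was at 7.80, below every 3 km array, and the difference of Tubb3 was -0.09 ± 0.17 (adjusted p = 0.750). Tubb2a differed by -0.55 ± 0.14 and the neurofilament gene Nefl by -0.56 ± 0.15 with 8 arrays.

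The 7 km arrays allow a test of whether the altitudes differ from each other. For 7 km against 3 km, limma passed 0 of 6656 probes in both fits (0%), with 180 probes (2.7%) at an unadjusted p below 0.05 with 9 arrays and 550 (8.26%) with 8. The smallest adjusted p was 0.718 with 9 arrays and 0.289 with 8. With 8 arrays the 3 named genes with the smallest p were Stard7, at 0.27 ± 0.029, Luzp1, a cytoskeletal protein, at -0.24 ± 0.030 and Fis1, a receptor of mitochondrial fission, at -0.25 ± 0.032 (7 km minus 3 km), and with 9 arrays Cryab, at -0.60 ± 0.11, took the place of Stard7. Against sea level, 8 probes passed at 7 km with 9 arrays (0.12%) and 21 with 8 (0.316%). The sea level arrays are shared by both altitudes, so the values stand side by side only. Acat2 differed by -0.72 at 3 km and -0.75 at 7 km, Omg by -0.72 and -0.88, Enoph1 by -0.40 and -0.50 and Abcg2 by -0.22 at both, with 8 arrays. Mt1 differed by 1.72 and 1.46, Cryab by 0.72 and 0.17, and Fis1 by 0.22 and -0.03.

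**Figure D5:**
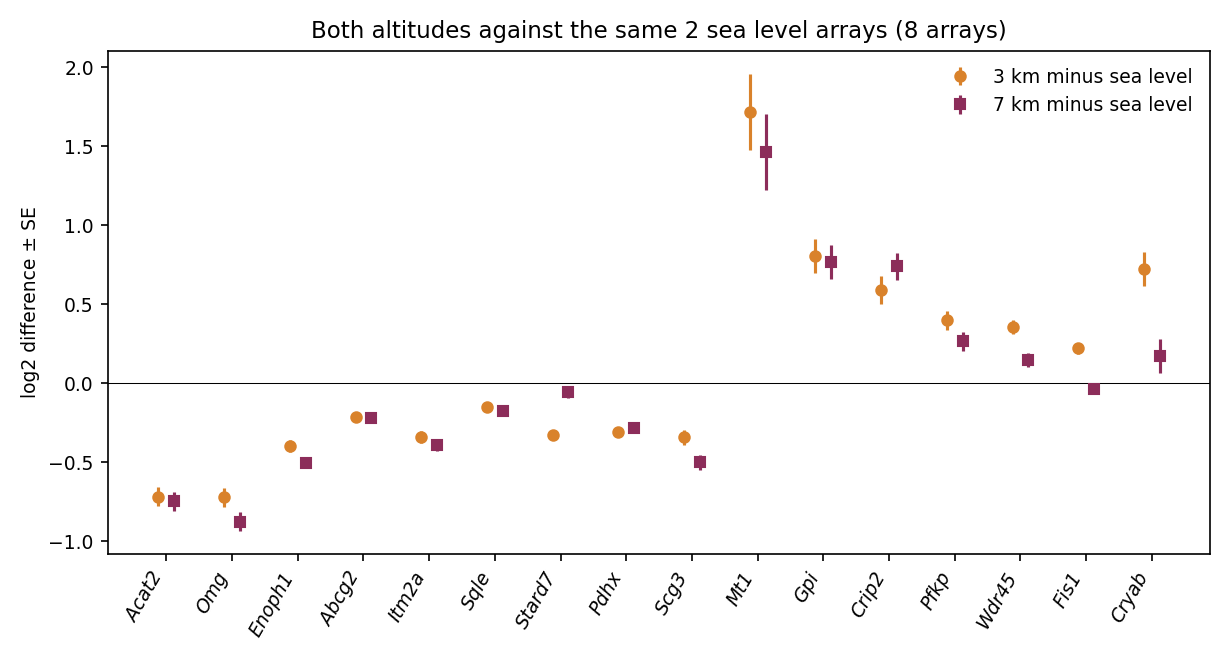
Log2 difference from the same 2 sea level arrays (vertical, ± SE) for named genes, at 3 km (circles) and at 7 km (squares), with 8 arrays. Acat2 lies at -0.72 and -0.75 and Mt1 at 1.72 and 1.46, while Stard7 lies at -0.33 and -0.06 and Cryab at 0.72 and 0.17; none of the 6656 probes passed for 7 km against 3 km.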

How the data were processed

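Per the file headers, the authors deposited, for each of 22523 probes and each array, an intensity with its detection p-value. The intensities are all above 0 and their medians differ, so neither background subtraction nor normalization is apparent in them. Their value table, also deposited, holds 21675 probes in a background-subtracted intensity with column means of 208 to 209, made by a method not stated, used as an alternative (floored at 16, log2). The slide of each array was not given. Sequences and positions come from RefSeq (GRCr8).

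Signals were background-corrected from the detection p-values, offset by 16, quantile normalized and taken to log2 with neqc of limma 3.58.1 in R 4.3.3. One mean per altitude was fitted over all arrays of a fit (lmFit, eBayes without trend), with Benjamini-Hochberg adjustment over 6656 probes. Adjusted p-values are limma's, at a threshold of 0.05, and values after ± are its standard errors. The 8-array fit repeated the normalization and kept the same probes. Tests on simulated data with 200 changed probes recovered the changes. Those changes were larger than most differences here, whose median size was 0.075 with 9 arrays and 0.030 with 8. The simulated noise was equal on all probes and arrays, and no array stood apart. The recovery therefore checks the code and does not measure power in these data. The number of arrays limits the precision. Gene symbols come from the platform annotation: 13353 probes have 1 symbol, and 13313 of these matched RefSeq. The remaining 9170 were counted as having none, as any probe with several symbols would be.

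The genes named are those that passed, those with the smallest p up to 5 in each direction, up to 3 members of each list described with the smallest p, and Tfpi2, Hif1a, Epas1, Vegfa, Slc2a1 and Hmox1. A list uses the brightest tested probe of each gene. The comparison, the lists and this rule were chosen with earlier results of these data known. Alternatives were leaving out each array, a replicate block, no background correction, scaling to equal medians, other filters on dim probes, the authors' table, only the groups compared, array weights and an intensity trend.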

Additional observations from a re-analysis of the deposited data

How the results depend on the processing

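With 8 arrays the 5 calls became 0 with the replicate block, 0 with scaling to equal medians, 2 with detection on 6 or more arrays, 2 without a filter on dim probes, 1 with only the groups compared, 37 with no background correction, 17 from the authors' values, 48 with array weights and 35 with an intensity trend. A filter of 3 or more of the 8 arrays, chosen after seeing the data, gave 0 of 6499 probes, and leaving out 1 of the 8 arrays gave 0 to 0. With 9 arrays the 0 calls became 1 without a filter on dim probes, 3 in the authors' table, 120 with array weights and 3 with an intensity trend, and leaving out 1 array gave 0 to 5: 5 without sea level replicate 3 and 1 without 3 km replicate 3. The other alternatives with 9 arrays, the replicate block included, gave 0. For 7 km against 3 km, the 0 calls became 1 in the authors' table with 9 arrays, and with 8 arrays 4 in the authors' table and 1 with scaling to equal medians, while leaving out 1 array gave 0 to 2 (2 without 7 km replicate 3, 1 without 3 km replicate 3). The cause of these changes was not tested.

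Whether the replicate numbers pair the samples could not be told. Same-numbered arrays of the 2 groups had correlations of 0.200, 0.0853 and 0.305 between their deviations from the group means, and 1 of 3 correlated best with its own number. Deviations from a mean of 3 arrays are tied to one another, and sea level replicate 3 stands apart, so these values cannot exclude a pairing.

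Scaling to equal medians with 9 arrays put the median over all probes at -0.55, against -0.00082, so values are read against that shift. Under it 17 named differences turned negative, 15 of them still above the shift: Wdr45 -0.36, Ccar2 -0.052, Cryab -0.025, Zfp593 -0.32, Pfkp -0.27, ILMN_1349474 -0.42, C1qb -0.27, C1qc -0.27, Podxl -0.40, Fis1 -0.60, Serpine2 -0.37, Tfpi -0.38, Anxa2 -0.027, Trem2 -0.59, Fkbp5 -0.49, Gpi -0.18 and Cited2 -0.47. With 8 arrays the same scaling turned Luzp1 to 0.013. In the authors' table with 9 arrays Tubb3 was at 0.091, Stard7 at 0.00087 and Vegfa at 0.19, and with array weights Vegfa was at 0.0078. Leaving out 1 array gave both signs with 9 arrays for Tubb3 (-0.29 to 0.031), Stard7 (-0.33 to 0.099), Vegfa (-0.029 to 0.016) and Cited2 (-0.022 to 0.061). Of 1938 values of named genes under alternatives, 31 changed sign in all. Of the named genes and probes that did not pass in a main fit, 33 passed under at least 1 alternative with 9 arrays and 21 with 8. Of 17 lists described, 13 kept the sign of their median under every alternative with 8 arrays and 7 with 9. These signs were counted against 0 and not against the shift. With 9 arrays the shift under equal medians can turn a positive list median negative and leaves a negative one negative. The count with 9 arrays is therefore no plain measure of how stable the lists are.

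A sea level mean of 2 arrays, dim probes compressed near the bottom of the scale and 3 arrays a group limit what can be detected.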

Other observations

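Of the 100 probes whose difference between 3 km and sea level exceeded 1 on the log2 scale with 9 arrays, 7 did so with 8 arrays, and of the 13 below -1, 2 did so with 8. Few of the 6656 tested probes were detected throughout 1 group and nowhere in the other. With 9 arrays 70 were detected on every sea level array and on no 3 km array, and 12 the other way. With 8 arrays these numbers were 88 and 29. With 9 arrays such a probe meets the detection filter through its brighter group alone. The arrays also differed in detected probes, with 6402, 6621 and 8170 at sea level and 6109, 6230 and 6434 at 3 km. The part of altitude in these counts was not tested. Ttr, the thyroid hormone carrier made by the choroid plexus and the only tested member of that marker list, was not detected on any 3 km array and was detected on all 3 sea level arrays. Its normalized signal on the linear scale was 203 and 174 on sea level replicates 1 and 2 and 3500.1 on sea level replicate 3.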
